A study of Homo sapiens with 6 samples.

Results

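The genes described here are 10 members of the NRF2 antioxidant response, namely NFE2L2, NQO1, HMOX1, TXN, TXNRD1, SRXN1, SLC7A11, GCLC, GCLM and OSGIN1. They were taken from a list of gene names, and every array probe whose sequence matched a sense transcript of one of them without a mismatch was counted as theirs, which gave 30 probes. By the same match to GENCODE release 44, 72.1% of the 125601 probes of the array fell on transcripts of 43260 genes in all. All 10 genes had exactly 1 probe on their principal mRNA, and the other 20 probes, which belong to 5 of the genes, lie on upstream exons, in introns or on transcripts without a coding sequence.

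NRF2, the protein of NFE2L2, is a transcription factor that is held in the cytoplasm and marked for degradation by KEAP1 with the ubiquitin ligase scaffold CUL3. Oxidants and electrophiles modify KEAP1, NRF2 then enters the nucleus, pairs with a small MAF protein and binds antioxidant response elements, whose core can be written TGACNNNGC. Its targets make and reduce glutathione, reduce thioredoxin, supply NADPH, remove quinones and aldehydes, and handle haem and iron. The pathway is often active in cancer cells, where it is linked to drug resistance.

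SKOV3 cells are an established line from a human ovarian cancer, and 1α,25(OH)2D3 is the active hormone made from vitamin D. The cells were grown in RPMI medium with heat-inactivated serum, and RNA was put on 6 one-colour Agilent arrays. By their labels, 3 arrays hold cells given 100 nmol/L 1α,25(OH)2D3 for 72 h (VD 1, VD 2 and VD 3 below), and 3 hold cells given ethanol vehicle for 72 h (vehicle 1, vehicle 2 and vehicle 3). The sample titles name the cells SKOV-1 and the cell line field SKOV-3, and the paper's SKOV3 is used here. The labels do not say whether the arrays came from separate cultures, so the p-values measure only the spread between these arrays. Slide 1 carries VD 1 and VD 2, and slide 2 carries VD 3 together with all vehicle arrays. The epithelial genes ERBB2, KRT7, KRT8, KRT19 and EPCAM were detected above background on all 6 arrays, and the fibroblast genes LUM, DCN and COL3A1 on 0 arrays. KRT18 and PDGFRB had no usable probe. Probes of the leukocyte genes PTPRC, CD3E, CD14 and CD79A and of the endothelial genes PECAM1, CDH5 and VWF were well above background on all 6 arrays as well. The CD79A probe read 16.32 to 16.77 (log2) over the arrays, and the KRT7 probe 15.78 to 16.41. The part of other cells or of unspecific binding in these signals was not tested.

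The order of the arrays by CYP24A1, the hydroxylase that inactivates vitamin D and the best known target of the vitamin D receptor, went against the labels. Probe A_23_P28815 of this gene stood at 2.23, 13.84 and 3.30 (log2) on VD 1, VD 2 and VD 3 and at 14.18, 4.75 and 14.34 on vehicle 1, vehicle 2 and vehicle 3. High values were thus found on 1 array labelled 1α,25(OH)2D3 and on 2 arrays labelled vehicle. A coding probe of the gene, A_33_P3369401, gave the same order of the arrays. It stood at 3.88, 14.64 and 4.46 on the VD arrays and at 15.16, 8.24 and 15.25 on the vehicle arrays. By that probe vehicle 2 lay between the high and the low arrays. The array names below therefore mean the label only, and each direction is a difference between labels. Because CYP24A1 is itself a response to the hormone, no mean or test was made over the 3 arrays with the high value, and their order is given as a description.

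Sequences of the 4 probes that lie wholly in coding exons are shown first, since they fix which part of the mRNA the values of NFE2L2, TXNRD1, TXN and OSGIN1 report. They are given in lower case as the array files hold them, 5′ to 3′ along the mRNA. Positions in hg38 come from an exact match to a transcript, and those of the TXN probe span an intron.
NFE2L2 A_33_P3225600, minus strand, chr2:177230965-177231024, exon 5 of 5: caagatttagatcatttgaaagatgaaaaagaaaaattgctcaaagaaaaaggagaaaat
TXNRD1 A_33_P3351120, plus strand, chr12:104339171-104339230, exon 16 of 17: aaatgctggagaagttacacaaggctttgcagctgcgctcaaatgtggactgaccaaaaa
TXN A_23_P60248, minus strand, chr9:110244169-110244786, across the junction of exons 4 and 5: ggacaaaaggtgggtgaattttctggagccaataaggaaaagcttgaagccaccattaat
OSGIN1 A_23_P77415, plus strand, chr16:83965544-83965603, exon 6 of 6: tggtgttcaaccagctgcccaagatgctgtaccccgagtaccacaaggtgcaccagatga

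The principal probes of NQO1, HMOX1, SRXN1, SLC7A11, GCLC and GCLM lie in the 3′ UTR of the last exon. The NQO1 probe is at chr16:69710371-69710430 in exon 6, the HMOX1 probe at chr22:35394129-35394188 in exon 5, and the SRXN1 probe at chr20:646919-646978 in exon 2. The SLC7A11 probe is at chr4:138164279-138164338 in exon 12, the GCLC probe at chr6:53497399-53497458 in exon 16, and the GCLM probe at chr1:93887254-93887313 in exon 7. The SRXN1 probe also matches a transcript of a second protein-coding gene model, ENSG00000270299, so its values cannot be given to SRXN1 alone.

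Promoters of 8 of the 10 genes were in the RefSeq promoter table (GRCh38.p14), as 10 windows of the 250 bases before a transcription start, and HMOX1 and SLC7A11 were not matched. The core TGACNNNGC was searched on both strands, and 3 of the 10 windows held it, against 10.9% of 35116 windows of the same length over all genes. The stretches around all 3 cores are shown. They come from GCLM and from an upstream and a downstream promoter of TXNRD1, so TXNRD1 is counted more than once. Capitals mark the core, and the offset is that of its first base from the start site. The stretches are written in the direction of the gene, and the strand of each core is relative to the gene, not to the chromosome. A match is a run of letters and was not tested as a binding site. Bases outside the windows were not searched, so a window without the core does not show that the gene lacks a response element.
GCLM promoter, core on the minus strand at offset -34: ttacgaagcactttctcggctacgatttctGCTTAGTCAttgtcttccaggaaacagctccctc
TXNRD1 upstream promoter, core on the plus strand at offset -99: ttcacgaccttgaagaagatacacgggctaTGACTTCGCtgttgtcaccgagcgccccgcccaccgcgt
TXNRD1 downstream promoter, core on the minus strand at offset -102: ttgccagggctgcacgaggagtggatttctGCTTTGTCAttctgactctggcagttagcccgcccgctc

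No member passed the test between labels. A probe was tested when the scanner had marked it well above background on every array of 1 label or of both, which 63079 probes of the array and 23 of the 30 member probes were. By the rule of the study's results, an unadjusted p under 0.05 in limma's test together with a fold change of more than 2, 0 of the 23 probes were called, against 0.747% of all tested probes (471). By an adjusted p under 0.05 (limma, Benjamini-Hochberg over all tested probes) 0 of the 23 were called, against 0.0% of all tested probes, and the smallest adjusted p of any probe on the array was 0.701, so that the threshold in the study's methods, which asks for a larger fold change as well as an adjusted p under 0.05, was met by 0 probes too. At an unadjusted p under 0.05 limma gave 1 of the 23 member probes and 4268 of all tested probes, and an unmoderated test, of the kind the study's methods name for its other experiments, called 0 member probes by either rule and gave 3900 of all tested probes an unadjusted p under 0.05. With 3 arrays against 3 an exact permutation test cannot go below 0.1. The 9 tested principal probes had a median difference of -0.02 (log2, VD minus vehicle, 4 above 0 and 5 below), and all 63079 tested probes had a median of -0.0037. The 95% intervals in the plot of differences show the size of change that these arrays leave possible, and those of the principal probes of NQO1, TXNRD1 and SLC7A11 and of 2 other probes (TXNRD1 OEV5_44307 and OSGIN1 A_19_P00317553) reach a fold change of 2. The values come from bulk RNA, in which fewer responding cells and less RNA per cell cannot be told apart.

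**Figure D1:**
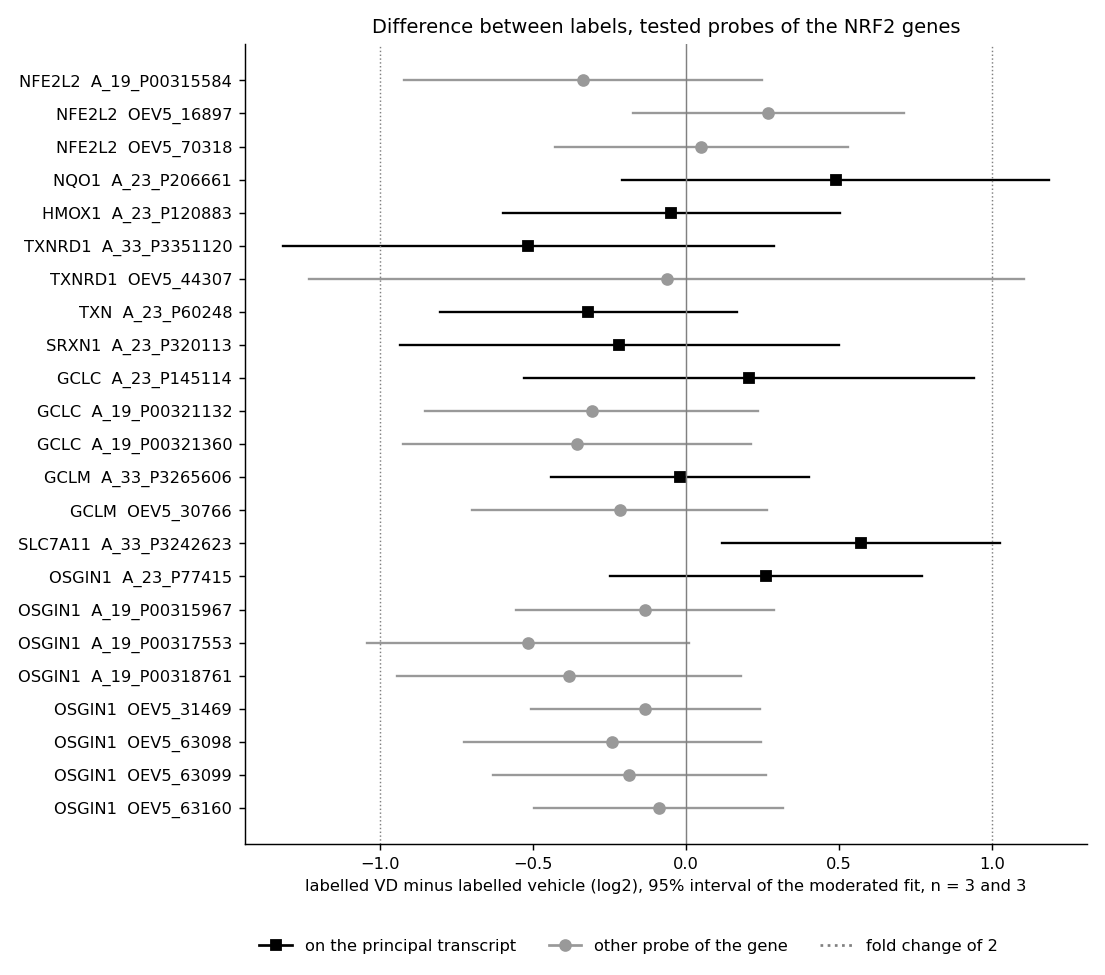
Difference between the arrays labelled VD and those labelled vehicle (log2, x axis) for the 23 tested probes of the NRF2 genes (y axis). Squares are probes on the principal mRNA, circles other probes of the gene, lines the 95% interval of limma's fit with 3 and 3 arrays, and dotted lines a fold change of 2. The interval of SLC7A11, from 0.12 to 1.03, is the one that leaves out 0.

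SLC7A11, the cystine transporter subunit that brings in the cysteine for glutathione, had the largest difference of the tested member probes. Its probe stood at 10.46, 10.19 and 10.50 (log2) on VD 1, VD 2 and VD 3 and at 10.13, 9.69 and 9.60 on vehicle 1, vehicle 2 and vehicle 3. Each VD array was above each vehicle array, with 0.05 between VD 2 and vehicle 1. The means were 10.38 ± 0.17 and 9.81 ± 0.29 (SD, n = 3 each), a difference of 0.57 ± 0.19 (SE) or 1.49-fold, with an unadjusted p of 0.02 and an adjusted p of 0.701 in limma's test. It was the only tested member probe whose labelled groups did not overlap with VD higher, against 7.03% of all tested probes, and 0 had VD lower without overlap, against 5.17%. Within the slide that holds both labels, VD 3 was 0.69 above the mean of the vehicle arrays.

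The other glutathione genes encode the 2 subunits of glutamate-cysteine ligase, which makes the first step of glutathione synthesis. GCLC, the catalytic subunit, stood at 5.68, 6.39 and 5.58 on the VD arrays and at 5.80, 5.11 and 6.12 on the vehicle arrays (log2, in the order of their numbers). Vehicle 2 was lowest and VD 2 highest, and the labels overlapped, with a difference of 0.21 ± 0.32 (SE, adjusted p = 0.863 in limma's test). GCLM, the modifier subunit, stood at 8.36, 8.51 and 7.99 on the VD arrays and at 8.22, 8.28 and 8.41 on the vehicle arrays. Its values covered 0.52, the smallest range of the 9 tested principal probes, and the difference was -0.02 ± 0.18 (SE, adjusted p = 0.984 in limma's test). An intronic probe of GCLM (OEV5_30766) lay between 5.49 and 6.29, and the 2 probes of GCLC on upstream exons, which also match the lncRNA ENSG00000231683, differed by -0.31 and -0.35 between labels without passing either rule.

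TXNRD1, thioredoxin reductase 1, which passes electrons from NADPH to thioredoxin, had the widest spread among the member probes above background on all 6 arrays. Its coding probe stood at 11.10, 11.98 and 11.05 (log2) on the VD arrays and at 11.65, 11.51 and 12.51 on the vehicle arrays. Vehicle 3 was highest, VD 1 and VD 3 were lowest, and the range of 1.46 is 2.75-fold, against a median range of 0.69 over all tested probes. The means were 11.38 ± 0.52 for VD and 11.89 ± 0.54 for vehicle (SD, n = 3 each), a difference of -0.51 ± 0.34 (SE, adjusted p = 0.717 in limma's test) that was -0.82 without VD 2 and -0.20 without vehicle 3. Of 4 TXNRD1 probes on transcripts without a coding sequence, OEV5_41936 and OEV5_44277 were on 0 arrays well above background, OEV5_44307 on 5 and OEV5_48174 on 4. OEV5_44307 stood at 4.34, 6.05 and 4.66 on the VD arrays and at 5.26, 4.30 and 5.67 on the vehicle arrays.

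TXN, thioredoxin itself, stood at 13.33, 13.51 and 13.10 on the VD arrays and at 13.57, 13.98 and 13.36 on the vehicle arrays. Vehicle 2 was highest, and the difference was -0.32 ± 0.21 (SE, adjusted p = 0.713 in limma's test). The SRXN1 probe, made for sulfiredoxin, which repairs overoxidised peroxiredoxins, stood at 8.79, 9.85 and 8.75 on the VD arrays and at 9.11, 9.45 and 9.48 on the vehicle arrays. VD 2 was above and VD 1 and VD 3 below all vehicle arrays, so the difference of -0.22 ± 0.31 (SE) is smaller than the spread within VD (SD 0.62).

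NQO1, the quinone reductase used most often to read NRF2 activity, stood at 9.08, 8.88 and 9.12 (log2) on the VD arrays and at 9.07, 7.86 and 8.68 on the vehicle arrays. The difference of 0.49 ± 0.30 (SE, adjusted p = 0.707 in limma's test) was 0.15 without vehicle 2, the lowest array, and vehicle 1 lay among the VD arrays. HMOX1, haem oxygenase 1, which breaks down haem and answers to BACH1 as well as NRF2, stood at 5.07, 5.85 and 5.24 on the VD arrays and at 5.59, 5.20 and 5.52 on the vehicle arrays. The labels overlapped, and the difference was -0.05 ± 0.24 (SE, adjusted p = 0.963 in limma's test).

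OSGIN1, an oxidative stress induced growth inhibitor, stood at 7.16, 7.77 and 7.93 on the VD arrays and at 7.34, 7.34 and 7.40 on the vehicle arrays. The vehicle arrays were close together (SD 0.03), the VD arrays lay on both sides of them, and the difference was 0.26 ± 0.22 (SE, adjusted p = 0.754 in limma's test). Its 9 other probes lie in transcripts without a coding sequence, upstream of the principal start or in an intron. The 7 of them that were tested differed by -0.52 to -0.09 between labels, and 0 of the 7 had a difference above 0, against 4 of the 7 within the slide that holds both labels (VD 3 against the vehicle arrays), where the coding probe differed by 0.57. A_19_P00317553 was nearest to the threshold among them, at 8.83 ± 0.35 for VD and 9.35 ± 0.25 for vehicle (SD, n = 3 each, adjusted p = 0.701 in limma's test).

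NFE2L2 itself was barely measured. Its coding probe was well above background on VD 1 alone, at 4.34, and was not well above background at 3.27 and 3.10 on VD 2 and VD 3 or at 3.44, 2.18 and 2.16 on the vehicle arrays, so it was not tested and no fold is given. The mRNA part under this probe was thus not detectable on 5 arrays, and the protein, whose amount is set mainly by its degradation, was not measured. The 4 other NFE2L2 probes lie on exons upstream of the principal start and match the lncRNA ENSG00000213963 too. Of these, OEV5_70318 was well above background on all 6 arrays, between 5.93 and 6.44, and differed by 0.05 ± 0.21 (SE) between labels. The other tested upstream probes differed by -0.34 ± 0.25 (A_19_P00315584) and 0.27 ± 0.19 (OEV5_16897, SE). A_19_P00315584 was well above background on 3 vehicle and 2 VD arrays, and OEV5_16897 on 3 VD arrays and 1 vehicle array. Each thus passed the detection rule only through the label where it was higher, so their signs are not read as directions.

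Some of the other probes lie almost on the same bases and show how far 2 readings of 1 transcript can part. The OSGIN1 probes A_19_P00318761 and OEV5_31469 start at 83932591 and 83932586 on chromosome 16, upstream of the principal start. A_19_P00318761 stood at 8.06, 7.47 and 8.36 on the VD arrays and at 8.48, 8.35 and 8.20 on the vehicle arrays. OEV5_31469 stood at 8.03, 8.23 and 8.38 on the VD arrays and at 8.46, 8.30 and 8.27 on the vehicle arrays. The readings ran closely together on 5 arrays and apart on VD 2, and their differences between labels were -0.38 ± 0.24 and -0.13 ± 0.16 (SE). The pair OEV5_63098 and OEV5_63099, which start at 83933481 and 83933482, differed by -0.24 and -0.18 between labels. Probes of 1 gene were therefore not averaged, and they share a target and are not replicates.

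**Figure D2:**
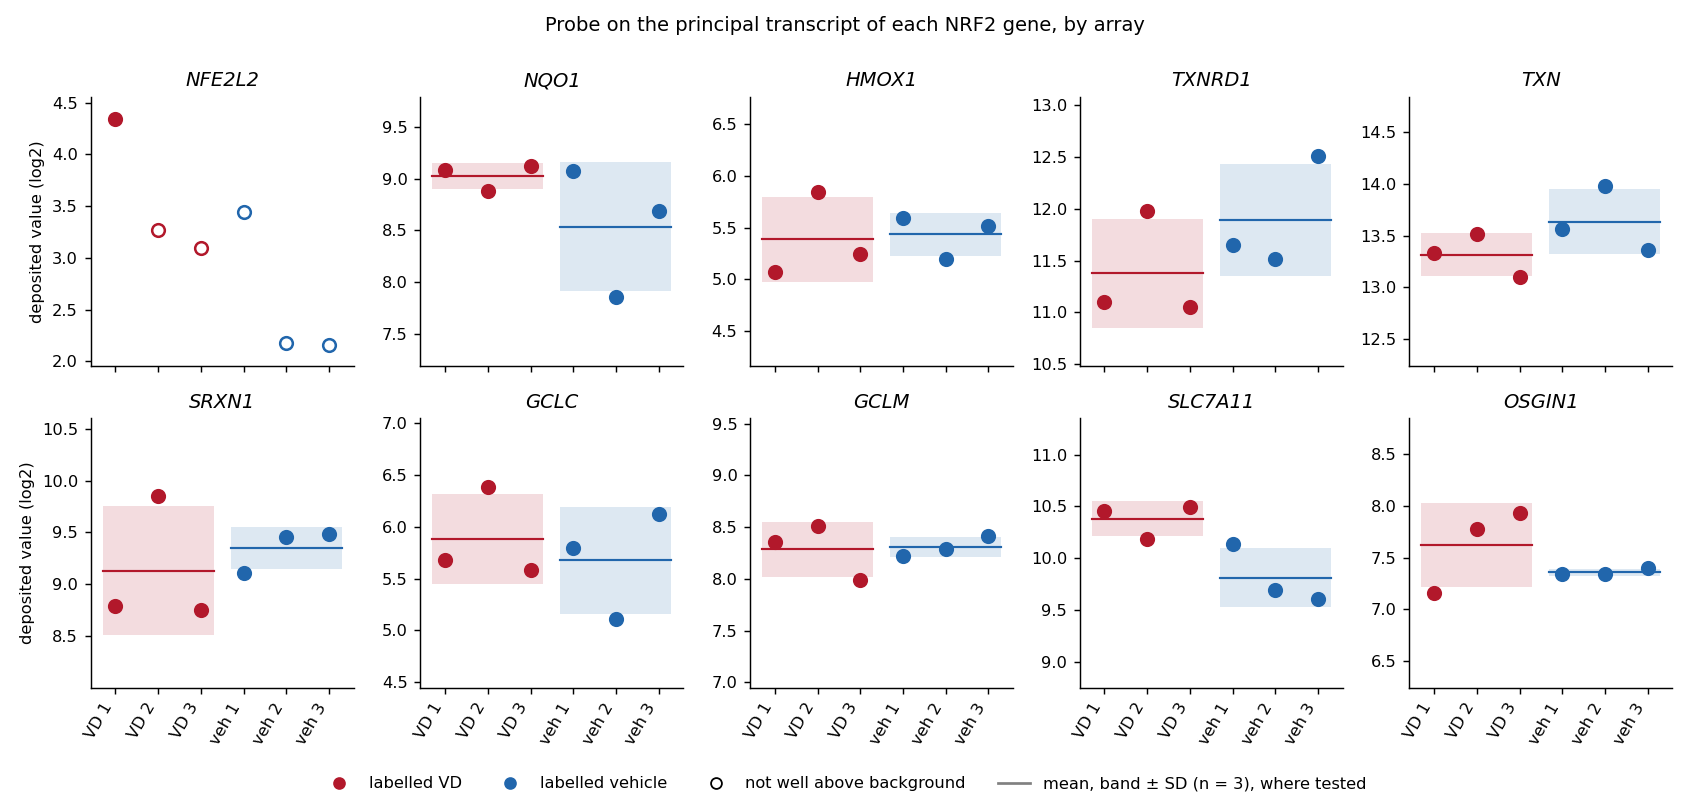
Deposited log2 value (y axis, with the same span in every panel) of the principal probe of each of the 10 genes on the 6 arrays (x axis). Filled points were well above background and open points were not, lines are group means and bands ± SD over 3 arrays. The labelled groups are apart for SLC7A11 among the tested genes, and NFE2L2 has 1 filled point.

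In the order of CYP24A1, TXNRD1, HMOX1 and GCLC, 3 of the 9 tested principal probes, were higher on VD 2, vehicle 1 and vehicle 3 than on each of the other arrays, and 0 were lower on all of them. Over all 63079 tested probes, 3.29% were above on these 3 arrays and 2.88% below. The gap between the lowest of the 3 and the highest of the others was 0.28 for HMOX1, 0.14 for TXNRD1 and 0.11 for GCLC, the last 2 smaller than the SD within either label and that of HMOX1 between the SDs of vehicle (0.21) and VD (0.41). Each label holds arrays of high and of low CYP24A1, so these SDs include that order and are no separate measure of noise for it. The tested TXNRD1 probe OEV5_44307 had the same order with a gap of 0.60, although it was not well above background on vehicle 2. Of the other principal probes, GCLM had VD 2 and vehicle 3 on top but vehicle 1 below 2 of the remaining arrays, and SRXN1 had vehicle 1 below vehicle 2. SLC7A11, NQO1, TXN and OSGIN1 were mixed as well. These probes share the same 6 arrays, and the order was not tested.

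The genes whose pattern was most like the coding probe of TXNRD1 over the 6 arrays were NCDN, TTPAL, VSTM1, TIMP3 and PDGFA, with Pearson correlations of 0.994, 0.993, 0.992, 0.983 and 0.982 among 17595 probes of other protein-coding genes, all 6 arrays being above background for each. None of these 5 is a listed pathway gene. With 6 points and that many probes such values are a description, and the points share the arrays and their normalization. Within the member genes, the principal probes closest to TXNRD1 were those of SRXN1 (0.77) and HMOX1 (0.69), and SLC7A11 had a correlation of -0.75.

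A further 42 genes of the pathway were looked at in 6 lists, with 1 probe per gene, and 36 of them were tested. Of the rest, TALDO1, IDH1 and AKR1C2 had no probe that matched a protein-coding transcript, and UGT1A6 had only probes shared between genes. AKR1B10 and CBR3 had a probe that did not pass the detection rule. By either rule 0 of the 36 were called, against 0.747% and 0.0% of all tested probes, and 0 had an unadjusted p under 0.05 in limma's test, against 4268 of all 63079. Of the 36, 17 had a difference above 0 and 19 below, with a median of -0.02. GPX2, the glutathione peroxidase of epithelia, was the 1 of the 36 whose labels did not overlap, against 7.03% of all tested probes with VD higher and 5.17% with VD lower. It stood at 8.78, 8.77 and 8.67 on the VD arrays and at 8.43, 8.57 and 8.45 on the vehicle arrays, a difference of 0.26 ± 0.14 (SE, adjusted p = 0.701 in limma's test).

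The regulators, which include KEAP1, CUL3, BACH1 and the small MAF proteins, had 9 of 9 genes tested and a median difference of -0.04. The largest difference and the largest range among them were those of MAFF, a small MAF partner of NRF2, at 7.44, 7.06 and 8.48 on the VD arrays and at 7.14, 8.19 and 8.98 on the vehicle arrays. The difference of -0.44 ± 0.51 (SE) is within the spread of either label. BACH1, the repressor that competes with NRF2 at response elements, and NFE2L1, a related factor, were lower on VD 2, vehicle 1 and vehicle 3 than on the other arrays, by gaps of 0.022 and 0.00015.

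The NADPH supply genes had 3 of 5 tested and a median of 0.07. TKT, transketolase, had both the largest difference and the largest range among them. It stood at 10.14, 10.24 and 10.20 on the VD arrays and at 10.61, 9.58 and 9.81 on the vehicle arrays. The VD arrays lay between vehicle 1 and vehicle 3, and the difference between labels was 0.19 ± 0.27 (SE, adjusted p = 0.848 in limma's test). PGD, a dehydrogenase that makes NADPH, was higher on VD 2, vehicle 1 and vehicle 3 than on the other arrays by a gap of 0.13, as were PRDX6, a peroxiredoxin, and FTH1, the ferritin heavy chain, by gaps of 0.07 each. Of the 36 genes 3 were thus above on these arrays and 2 below, beside the 3.29% and 2.88% of all tested probes given for the members.

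The glutathione genes had 8 of 8 tested and a median of -0.07. GSS, glutathione synthetase, had the largest difference, -0.35 ± 0.27 (SE), and GSTM3, a glutathione transferase, the largest range, with vehicle 2 at 6.43 and the other arrays between 7.20 and 7.55. The thioredoxin system genes had 3 of 3 tested and a median of -0.12, with TXN2, the mitochondrial thioredoxin, at -0.29 ± 0.17 (SE). The haem and iron genes had 5 of 5 tested and a median of -0.09, with BLVRB, a biliverdin reductase, at -0.22 ± 0.16 (SE) and FTL, the ferritin light chain, with the largest range of 0.97.

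The detoxification genes had 8 of 12 tested and the highest median, 0.27, with 7 differences above 0 and 1 below. These differences depended on both vehicle 1 and vehicle 2. Without vehicle 2 AKR1C1 was at -0.28, AKR1C3 at -0.27, UGDH at -0.20 and EPHX1 at -0.03. PTGR1, at -0.10 with all arrays, was then at -0.26. Without vehicle 1 these genes were, in the same order, at 0.81, 0.86, 0.27, 0.65 and 0.18. CBR1, ALDH3A1 and PIR stayed above 0 with each array left out. PIR, pirin, an iron-binding protein and known NRF2 target, had the largest difference, at 10.53, 10.09 and 10.24 on the VD arrays and 10.43, 9.20 and 9.37 on the vehicle arrays (0.62 ± 0.33 SE, adjusted p = 0.701 in limma's test). Without vehicle 1 its difference was 1.00 with an unadjusted p of 0.00177 in limma's test, past the rule of fold change and unadjusted p (adjusted p = 0.376), and without vehicle 2 it was 0.39. AKR1C3, an aldo-keto reductase, had the largest range, at 12.37, 12.70 and 12.40 on the VD arrays and 13.43, 11.16 and 12.10 on the vehicle arrays. The 3 VD arrays lay between vehicle 1 and vehicle 3, and the range of 2.26 came from the vehicle arrays alone. The aldo-keto reductases are close paralogs, and although the probe matched AKR1C3 alone without a mismatch, signal from the others cannot be told apart.

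**Figure D3:**
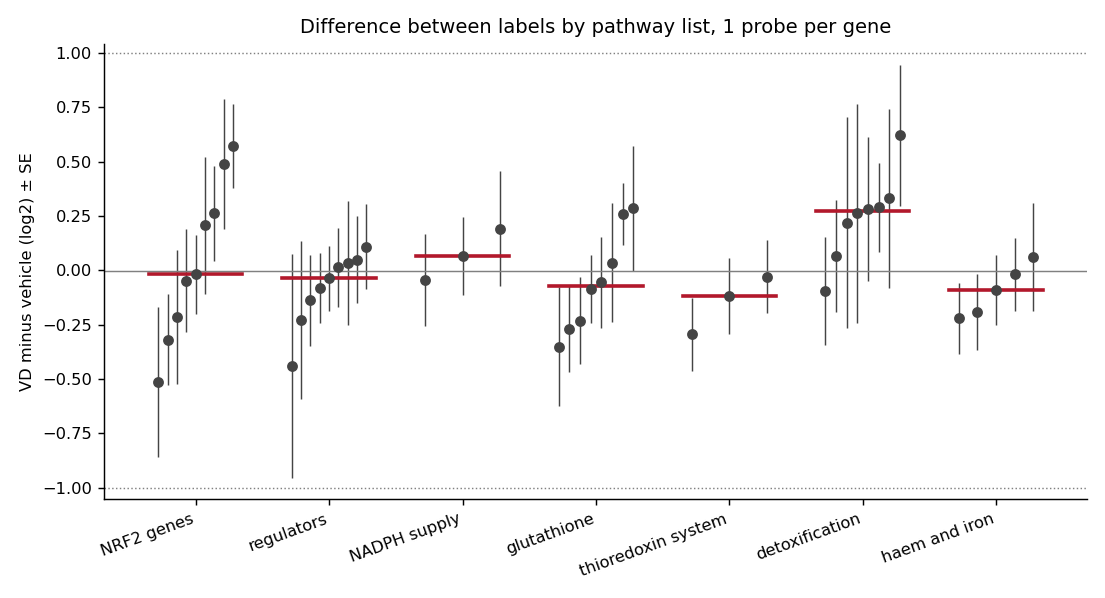
Difference between labels (log2, y axis, VD minus vehicle) with SE for the 9 tested NRF2 genes and the 36 tested pathway genes by list (x axis), 1 probe per gene, n = 3 and 3 arrays. Red bars are list medians, the grey line is the median of all tested probes and dotted lines mark a fold change of 2. The detoxification median, 0.27, is the highest, but AKR1C1, AKR1C3, UGDH and EPHX1 of that list turn below 0 without vehicle 2. They rise without vehicle 1. No gene reaches a fold change of 2.

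The arrays labelled vehicle differed from each other in the wider pathway. Vehicle 1 held the highest of the 6 values for 21 of the 36 pathway genes (58.3%), against 17.3% of all tested probes and 18.0% of 13312 protein-coding genes with 1 probe each. This included 6 of 8 detoxification genes, 5 of 8 glutathione genes and 5 of 5 haem and iron genes, but 0 of 9 regulators. Vehicle 2 held the lowest value for 12 of the 36 (33.3%), against 17.1% of all tested probes and 16.5% of the protein-coding genes, among them 6 of 8 detoxification genes and 0 of 9 regulators. Of the 9 tested principal probes of the NRF2 genes, vehicle 1 was highest for 0 and vehicle 2 lowest for 2, NQO1 and GCLC. Both are arrays with the same label on the same slide. By CYP24A1 probe A_23_P28815 vehicle 1 was high and vehicle 2 low, while the coding probe A_33_P3369401 placed vehicle 2 in between. The listed genes share the arrays, and these counts were not tested.

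**Figure D4:**
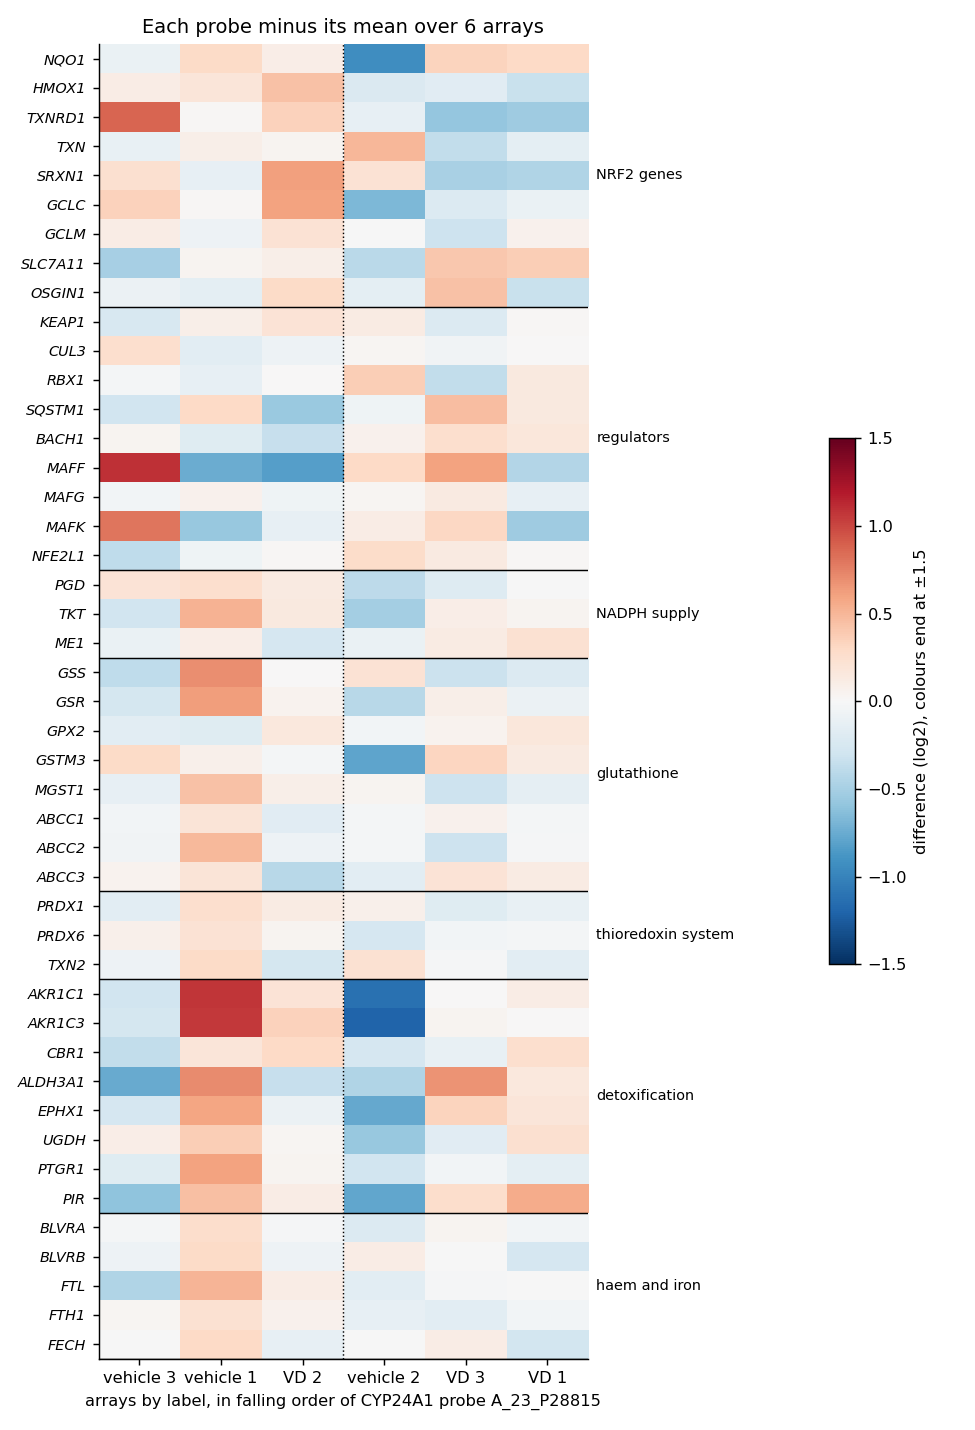
Value of each probe minus its mean over the 6 arrays (log2, colour) for the 9 tested NRF2 genes and the 36 tested pathway genes (rows, grouped by list) on the 6 arrays (columns, in falling order of CYP24A1 probe A_23_P28815, with a dotted line between the arrays of high and low value). TXNRD1, HMOX1 and GCLC are higher on the 3 arrays left of the line than on the others, and vehicle 1 and vehicle 2 are far apart in the detoxification genes.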

How the data were processed

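The authors scanned 6 one-colour arrays of SKOV3 cells with Agilent Feature Extraction (version 10.7.1.1 by the submitters' processing notes). They deposited for each spot a background-corrected intensity on a linear scale and a flag for spots well above background, and a table of log2 values per probe and array. The sorted columns of the deposited log2 table differed by at most 0.000913, so the authors had normalized it by quantiles, and its rank correlation with the scanner intensity of the same array was at least 0.9998. The table held 0 columns of other samples. Each array had 175812 spots that are not controls, 0 saturated spots and 1837 to 2471 outlier spots, which were left out, and on each array 48.9% to 57.3% of all probes passed the flag for well above background. The number of arrays, 3 per label, limits the precision.

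The files name no gene, so the sequence of each probe was matched exactly to sense transcripts of GENCODE release 44. Positions in hg38 were taken from these transcripts, although the design header of the arrays names hg19. The deposited log2 values were compared between labels with limma 3.58.1 in R 4.3.3 (linear model, empirical Bayes, no covariate, Benjamini-Hochberg over all 63079 tested probes). On simulated data for this comparison, with 63079 probes, limma recovered 187 of 200 changed probes and called 10 unchanged ones. Recovery of differences as small as those of the member genes, 0.57 at most on a tested probe, was not tested. Recovery on the measured values, where 0 probes had an adjusted p under 0.05, was not tested either. Other scripts ran in Python 3.11.15 with pandas 2.3.3 and scipy 1.17.1.

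Members and lists were chosen with earlier results of these data known. Named are all members, and of each other list the genes with the largest difference, the largest range, a call or labelled groups that do not overlap, with the 5 probes most like the member probe of largest range. A pathway gene was given by its probe with the highest mean among those tested, without probes that match protein-coding transcripts of several genes. Alternatives were scanner intensity scaled to the 75th percentile, normexp with an offset of 50 and quantiles, no filter, a filter on all 6 arrays, slide or replicate number as a block, the methods' t-test, each array left out, and 1 probe per gene name. One gene of the pathway lists is not reported here.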

Additional observations from a re-analysis of the deposited data

How the results depend on the processing

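No member was called by either rule under any alternative, and the median difference of the tested member probes stayed between -0.17 and -0.02. The smallest adjusted p of any tested member probe in any setting was 0.167, without VD 3. For 19 genes with 1 probe each (9 principal member probes and 10 named pathway genes), 233 of 247 values under the alternatives kept the sign and 14, of 8 genes, changed it. With the slide as a block, which equals VD 3 against the vehicle arrays, GCLC turned to -0.10 and MAFF to 0.38. Over all tested member probes this block changed 7 of 23 signs, so that 11 and not 6 were above 0, and over the pathway genes 9 of 36. With each array left out, HMOX1 ranged from -0.28 to 0.11 (0.03 without VD 3 and without vehicle 1), GCLC from -0.077 to 0.43 (-0.044 without VD 2), GCLM from -0.13 to 0.13 (0.035 without vehicle 3), GSTM3 from -0.041 to 0.50, TKT from -0.017 to 0.50, AKR1C3 from -0.27 to 0.86 and FTL from -0.15 to 0.33 (-0.0008 without vehicle 2). Those that kept their sign moved by over 1.5 times too, with NQO1 from 0.15 to 0.76, TXNRD1 from -0.82 to -0.20, SRXN1 from -0.58 to -0.03, TXN from -0.46 to -0.15 and OSGIN1 from 0.11 to 0.49, while SLC7A11 ranged from 0.47 to 0.73. With normexp SLC7A11 was at 0.39, with an unadjusted p of 0.070 in limma's test. That p was 0.058 to 0.070 without VD 1, VD 3, vehicle 2 or vehicle 3. It was 0.021 without VD 2 and 0.0054 without vehicle 1.

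The count of all probes past a fold change of 2 and unadjusted p, 471 (308 higher), became 33 (14 higher) with normexp, 1612 without a filter, 154 with a filter on all 6 arrays, 804 (401 higher) with the slide block, 139 by the methods' t-test and 74 with 1 probe per gene name, which tests fewer probes. Leaving out each array gave 329 to 1517 probes by that rule, the lowest without VD 1 and the highest without VD 3, and 0 to 4 by adjusted p, the 4 without vehicle 1. With 2 arrays of a label left, the fit pools the spread. The replicate block gave 581 and 0, and changed no call of a member. Deviations of arrays with the same number correlated at 0.12, 0.092 and -0.025, so the numbers were not taken as pairs. Scaled to the 75th percentile, 3 principal member probes followed CYP24A1 in order, beside 3.18% of all tested probes.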
